A study of Mus musculus with 20 samples.

Results

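Atf4, Atf3, Ddit3, Trib3, Chac1 and Asns are genes of the integrated stress response, and their mRNA was followed here in the kidney cortex of single mice after 3 kinds of acute kidney injury. The genes were chosen by symbol: 6 of 6 had a row among the 6025 genes of the analysed table, and all 6 passed the filter on low values that left 5672 genes to test. Each of the 20 mice was 1 library. All mice were wild type (WT) for genotype, of strain C57BL/6, and 8 weeks old. They were controls (n = 8, labelled mock), mice sampled 24 h after ischemia-reperfusion injury (IRI, n = 4), mice sampled 24 h after induction of rhabdomyolysis, in which muscle breakdown products reach the kidney (n = 4), and mice sampled 72 h after cisplatin, a platinum drug toxic to tubules (n = 4). The series design speaks of mock and vehicle controls, but no label says which control was which. Cisplatin was the only treatment read at 72 h, so treatment and time cannot be told apart there.

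In the integrated stress response, kinases that sense unfolded protein, amino acid shortage, heme shortage or double-stranded RNA phosphorylate the translation factor eIF2α. Most protein synthesis then slows, while the Atf4 mRNA is translated more because of short upstream reading frames, so the level of Atf4 mRNA is not a measure of ATF4 protein. ATF4 is a leucine-zipper transcription factor that binds C/EBP-ATF response elements in genes for amino acid synthesis, amino acid transport and stress signalling. Atf3 and Ddit3 encode further leucine-zipper factors, Trib3 and Chac1 encode regulators of the response and of glutathione, and Asns encodes an enzyme. In kidney this response is best known from tubular cells under oxygen, toxin or nutrient stress.

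The promoter windows of the 6 genes were searched for the C/EBP-ATF response element because it is the element through which ATF4 acts. Each window, from RefSeq on GRCm38.p6, ran from 250 bases before to 50 bases after the annotated start, 300 bases in all, and 6 of 6 genes matched a window. The letters TGATGNAAN, read on both strands, were present in 4 of the 6 windows, against 3.95% of the 32851 windows of all genes and 2.34% of the 5376 windows of tested genes. The matching stretches are printed 5′ to 3′ on the strand of the gene, with the match in capitals. In Atf3, Chac1 and Trib3 the match reads TGATGNAAN on the opposite strand, and in Asns it reads so on the strand of the gene:
Atf3, chr1:191183381-191183500, minus strand: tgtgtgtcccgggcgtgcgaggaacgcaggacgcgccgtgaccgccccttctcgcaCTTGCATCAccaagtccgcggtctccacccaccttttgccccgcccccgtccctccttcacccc
Chac1, chr2:119350992-119351111, plus strand: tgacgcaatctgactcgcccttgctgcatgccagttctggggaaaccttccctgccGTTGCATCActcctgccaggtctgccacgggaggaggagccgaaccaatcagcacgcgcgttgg
Trib3, chr2:152344028-152344057, minus strand: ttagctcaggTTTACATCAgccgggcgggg
Asns, chr6:7693213-7693242, minus strand: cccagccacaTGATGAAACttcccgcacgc
Counting the start base as 0, the match lay at -111 to -103 in Atf3, -194 to -186 in Chac1, 13 to 21 in Trib3 and -23 to -15 in Asns. The Trib3 match therefore lay after the RefSeq start, though before the first base of the gene in GENCODE, and the Asns match lay inside an exon of the GENCODE annotation. The Atf3 window, at 191183284 to 191183583, lay inside the span of the GENCODE gene, whose first base on the minus strand is 191218039. No match to these letters was found in the windows of Atf4 and Ddit3. The AP-1 letters TGANTCA were found in Ddit3 alone, at -242 to -236, against 7.81% of all windows. The cAMP response element TGACGTCA, present in 1.79% of all windows, and the palindromic C/EBP letters TTGCGCAA, present in 0.183%, were in 0 of 6. These matches describe letters in a window, variants of these letters were not searched, and no binding was measured in these mice.

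Levels are given in CPM, that is, reads scaled by library size. The table holds a selected set of genes: 6025 of 6025 differed at least 1.5-fold from the mean of the 8 controls in at least 1 injury, so a called change is the usual case in it. The libraries held 3.48 to 5.40 M reads in these genes, of effective library sizes of 6.07 to 10.6 M. Library numbers fell into 2 ranges, with controls 1 to 4 and IRI in one and controls 5 to 8, rhabdomyolysis and cisplatin in the other, so each injury was set against the controls numbered in the same range. Between controls 1 to 4 and controls 5 to 8, limma called 0 genes, with 454 at an unadjusted p under 0.05 and 0 called by edgeR on the recovered reads, and adjusted p for the 6 genes lay between 0.753 and 1. The tissue carried its labelled identity: the 13 proximal tubule markers in the table, none of them at 0, summed to 31342 to 55868 CPM in controls.

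In each injury 6 of the 6 genes were called higher, and their levels in injured mice did not overlap those of any control. Of all tested genes, 31.0% had every IRI mouse above all 8 controls, 42.3% every rhabdomyolysis mouse and 40.7% every cisplatin mouse. After IRI 40.6% of the 5672 tested genes were called higher and 40.1% lower, or 80.7% either way. After rhabdomyolysis 48.8% were called higher and 46.5% lower, or 95.3% either way, and after cisplatin 47.8% were called higher and 44% lower, or 91.8% either way. A call or a lack of overlap by itself therefore sets the 6 genes little apart, and the size of their changes is given beside it. Their median log2 difference was 1.94, 3.75 and 1.38 in IRI, rhabdomyolysis and cisplatin, beside 0.08, 0.31 and 0.30 over all tested genes. Quantile normalization moved the all-gene median in cisplatin from 0.30 to 0.03 and in rhabdomyolysis from 0.31 to 0.14. Among the 4429 genes with a mean of 5 CPM or more, the all-gene median was -0.06 in IRI, -0.38 in rhabdomyolysis and -0.03 in cisplatin.

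The highest mean level of each gene was after rhabdomyolysis. Per kilobase of exon, which allows genes to be compared with each other, mean levels in the 8 controls ran from 25.7 CPM per kb for Atf4 through 3.79 for Ddit3, 1.45 for Asns, 0.486 for Trib3 and 0.369 for Atf3 to 0.283 for Chac1. After rhabdomyolysis the order was Atf4 at 153 CPM per kb, then Atf3 at 43.0 and Ddit3 at 41.3, then Asns at 26.2, Trib3 at 17.6 and Chac1 at 10.7. Atf3 overlapped Ddit3 there and Asns overlapped Trib3, as did Trib3, Atf3 and Chac1 with each other in the controls. After IRI the order below Atf4 at 43.8 was led by Asns at 16.9 CPM per kb, ahead of Ddit3 at 8.32, Atf3 at 5.96, Trib3 at 5.70 and Chac1 at 2.74, and each of these lower neighbours overlapped the next. The highest Trib3 mouse there, IRI mouse 1 at 13.5 CPM per kb, also lay above the lowest Asns mouse, at 13.0. After cisplatin Ddit3 at 16.7 and Atf3 at 16.1 CPM per kb, which overlapped, stood above Asns at 5.20, Trib3 at 1.42 and Chac1 at 0.994.

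**Figure D1:**
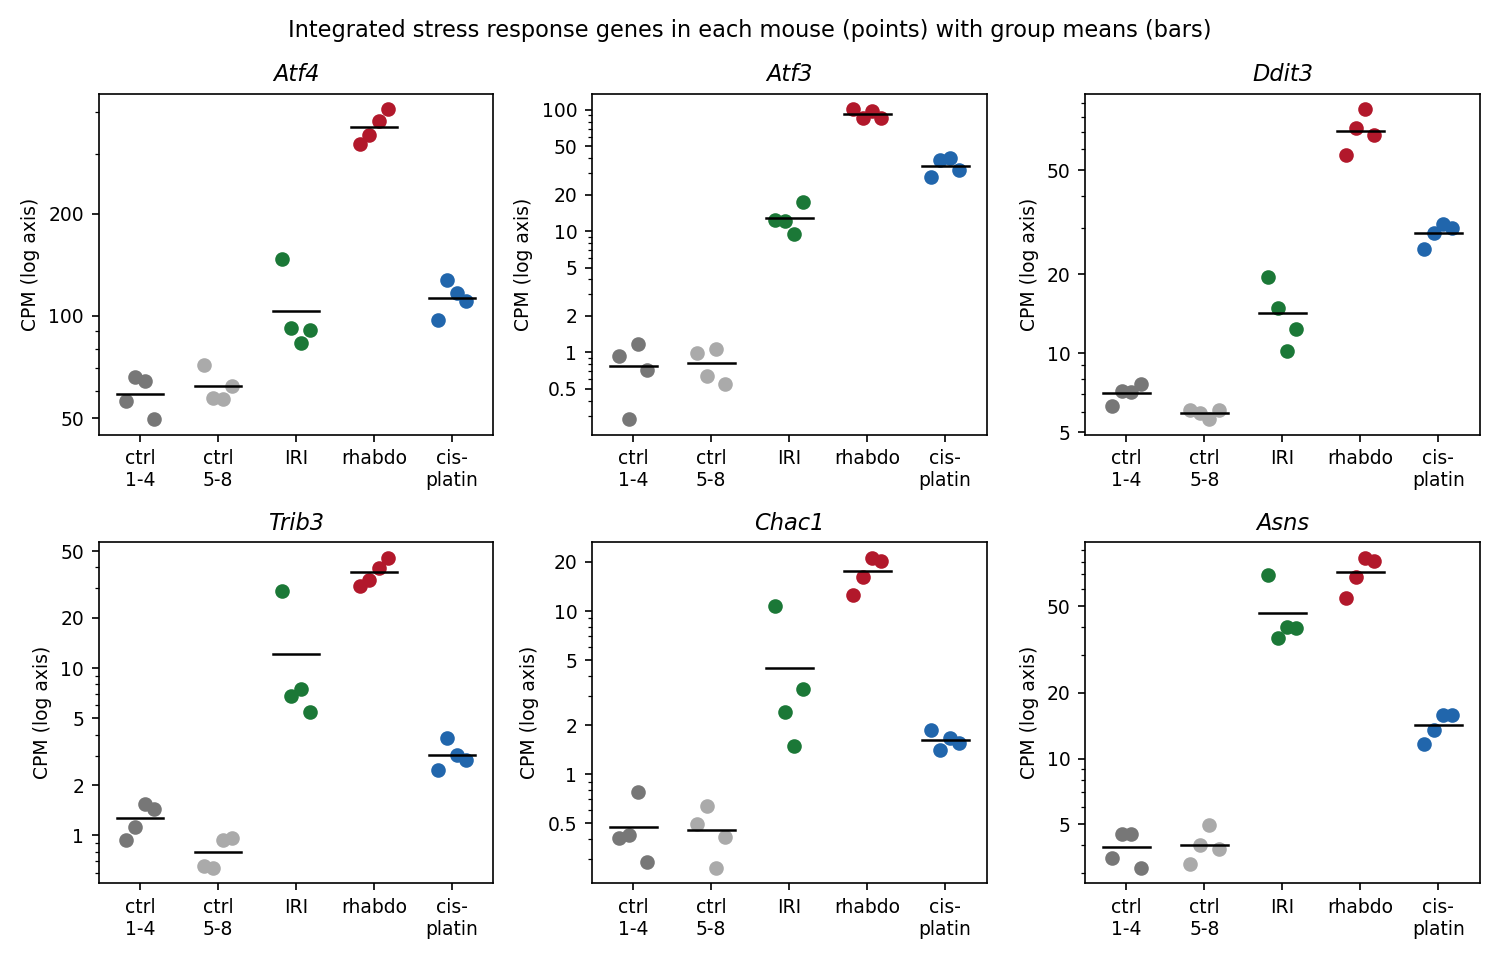
Level of each of the 6 genes in every mouse, in CPM on a log axis, by group. Each point is 1 mouse and each bar the group mean. All injured mice lie above all 8 controls for each gene, and the 4 rhabdomyolysis mice lie highest for all genes but Asns, where IRI mouse 1 lies among them.

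Atf4, the regulator of the response, lies on chromosome 15 at 80255184-80257541 on the plus strand (GRCm38). In the 8 controls it ranged from 49.6 to 71.8 CPM with a median of 59.6. In the IRI mice 1 to 4 it measured 147, 92.2, 83.4 and 90.6 CPM, in the rhabdomyolysis mice 321, 342, 375 and 408 CPM, and in the cisplatin mice 97.6, 128, 117 and 111 CPM. No injured mouse overlapped the controls, mouse 1 was the high one among the IRI mice, and the rhabdomyolysis mice stood apart from all others. The mean was 60.5 ± 6.98 CPM in controls (SD, n = 8), 103 ± 29.3 after IRI, 361 ± 38.0 after rhabdomyolysis and 113 ± 12.6 after cisplatin (SD, n = 4 each). Against their own controls these means were 1.75-fold, 5.83-fold and 1.83-fold higher. On the log2(CPM + 1) scale used for testing with limma, the differences were 0.77, 2.53 and 0.86 (SE 0.147), with adjusted p of 8.09e-05, 6.93e-13 and 1.42e-05. Atf4 had the highest level and the smallest change of the 6 genes in IRI and rhabdomyolysis on this scale.

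Atf3 encodes a transcription factor that is induced early in many stresses and can repress or activate its targets. It lies on chromosome 1 at 191170296-191218039 on the minus strand, with the small RNA gene Gm24748 inside it on the opposite strand. It was near the floor in controls, at 0.282 to 1.16 CPM with a median of 0.83, from 2 to 9 reads a library. It measured 12.3, 12.1, 9.53 and 17.4 CPM in the IRI mice, 101, 85.5, 97.7 and 86.2 CPM in the rhabdomyolysis mice and 28.0, 38.8, 39.7 and 32.2 CPM in the cisplatin mice. The 4 groups did not overlap each other at any point, and their order was controls, IRI, cisplatin, rhabdomyolysis. Means were 0.794 ± 0.298 CPM in controls (SD, n = 8), 12.8 ± 3.29 after IRI, 92.7 ± 8.07 after rhabdomyolysis and 34.6 ± 5.54 after cisplatin (SD, n = 4 each), which were 16.5-fold, 114-fold and 42.6-fold above their own controls. The log2(CPM + 1) differences, which understate changes from such low levels, were 2.96, 5.70 and 4.29 (SE 0.179), with limma adjusted p of 5.92e-12, 3.98e-17 and 3.82e-15. Of the 6 genes, Atf3 had the largest log2 difference in rhabdomyolysis and in cisplatin.

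Ddit3 encodes CHOP, a C/EBP-family factor linked to cell death when endoplasmic reticulum stress persists. It lies on chromosome 10 at 127290774-127296288 on the plus strand and overlaps Mars by 68 bases and Gm4189 by 15 bases, both on the opposite strand, and whether the counting used strand is not given in the sources used here. Controls ranged from 5.61 to 7.62 CPM with a median of 6.21. The IRI mice measured 19.5, 14.9, 10.2 and 12.4 CPM, the rhabdomyolysis mice 57.3, 72.2, 85.5 and 67.8 CPM and the cisplatin mice 25.0, 28.7, 31.1 and 30.0 CPM. As for Atf3, the groups did not overlap and rose in the order controls, IRI, cisplatin, rhabdomyolysis. Means were 6.49 ± 0.714 CPM in controls (SD, n = 8) and 14.3 ± 4.01, 70.7 ± 11.7 and 28.7 ± 2.65 after IRI, rhabdomyolysis and cisplatin (SD, n = 4 each). Ddit3 was 2.02-fold, 11.9-fold and 4.84-fold above its own controls, with log2 differences of 0.89, 3.36 and 2.09 (SE 0.153) and limma adjusted p of 2.41e-05, 1.54e-14 and 4.59e-11.

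Trib3 encodes a pseudokinase that is induced by ATF4 and CHOP and dampens their activity. It lies on chromosome 2 at 152337422-152344032 on the minus strand. Controls ranged from 0.642 to 1.55 CPM with a median of 0.954, from 4 to 12 reads. The IRI mice measured 28.7, 6.79, 7.46 and 5.49 CPM, the rhabdomyolysis mice 31.0, 33.6, 39.6 and 45.8 CPM and the cisplatin mice 2.45, 3.84, 3.02 and 2.81 CPM. Mouse 1 of the IRI group came close to the lowest rhabdomyolysis mouse, while the other IRI mice lay between cisplatin and rhabdomyolysis. Means were 1.03 ± 0.328 CPM in controls (SD, n = 8), 12.1 ± 11.1 after IRI, 37.5 ± 6.58 after rhabdomyolysis and 3.03 ± 0.587 after cisplatin (SD, n = 4 each). Trib3 was 9.59-fold, 46.8-fold and 3.78-fold above its own controls, with log2 differences of 2.24, 4.41 and 1.16 (SE 0.302) and limma adjusted p of 1.01e-06, 8.61e-12 and 0.00122.

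Chac1 encodes a γ-glutamyl cyclotransferase that breaks down glutathione. It lies on chromosome 2 at 119351229-119354381 on the plus strand. It was the least abundant of the 6, with 0.267 to 0.774 CPM in controls and a median of 0.418, from 2 to 6 reads. The IRI mice measured 10.8, 2.40, 1.49 and 3.32 CPM, the rhabdomyolysis mice 12.5, 16.2, 21.3 and 20.2 CPM and the cisplatin mice 1.87, 1.41, 1.68 and 1.55 CPM, the last from 14 to 16 reads a library. IRI and cisplatin overlapped for this gene, and both lay above all controls. Means were 0.463 ± 0.172 CPM in controls (SD, n = 8), 4.49 ± 4.24 after IRI, 17.5 ± 4.03 after rhabdomyolysis and 1.63 ± 0.193 after cisplatin (SD, n = 4 each). These were 9.51-fold, 38.6-fold and 3.58-fold above their own controls, with log2 differences of 1.64, 3.65 and 0.86 (SE 0.300) and limma adjusted p of 4.76e-05, 1.66e-10 and 0.0108. The cisplatin call was lost with quantile normalization, at a log2 difference of 0.41 and an adjusted p of 0.213.

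Asns encodes asparagine synthetase, which makes asparagine from aspartate and glutamine and is a standard readout of ATF4 activity. It lies on chromosome 6 at 7675169-7693254 on the minus strand. Controls ranged from 3.16 to 4.94 CPM with a median of 3.94. The IRI mice measured 69.6, 35.6, 40.1 and 39.8 CPM, the rhabdomyolysis mice 54.5, 68.3, 83.5 and 80.8 CPM and the cisplatin mice 11.7, 13.5, 15.9 and 15.8 CPM. IRI mouse 1 lay inside the rhabdomyolysis range, the other IRI mice lay below it, and cisplatin lay between controls and IRI. Means were 3.97 ± 0.641 CPM in controls (SD, n = 8), 46.3 ± 15.7 after IRI, 71.8 ± 13.3 after rhabdomyolysis and 14.2 ± 2.01 after cisplatin (SD, n = 4 each). Asns was 11.8-fold, 17.8-fold and 3.53-fold above its own controls, with log2 differences of 3.22, 3.85 and 1.60 (SE 0.185) and limma adjusted p of 2.84e-12, 3.51e-14 and 6.74e-08. In IRI it had the largest difference of the 6 genes on the log2(CPM + 1) scale, whereas by the fold of mean CPM Atf3 was larger, at 16.5-fold against 11.8-fold.

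**Figure D2:**
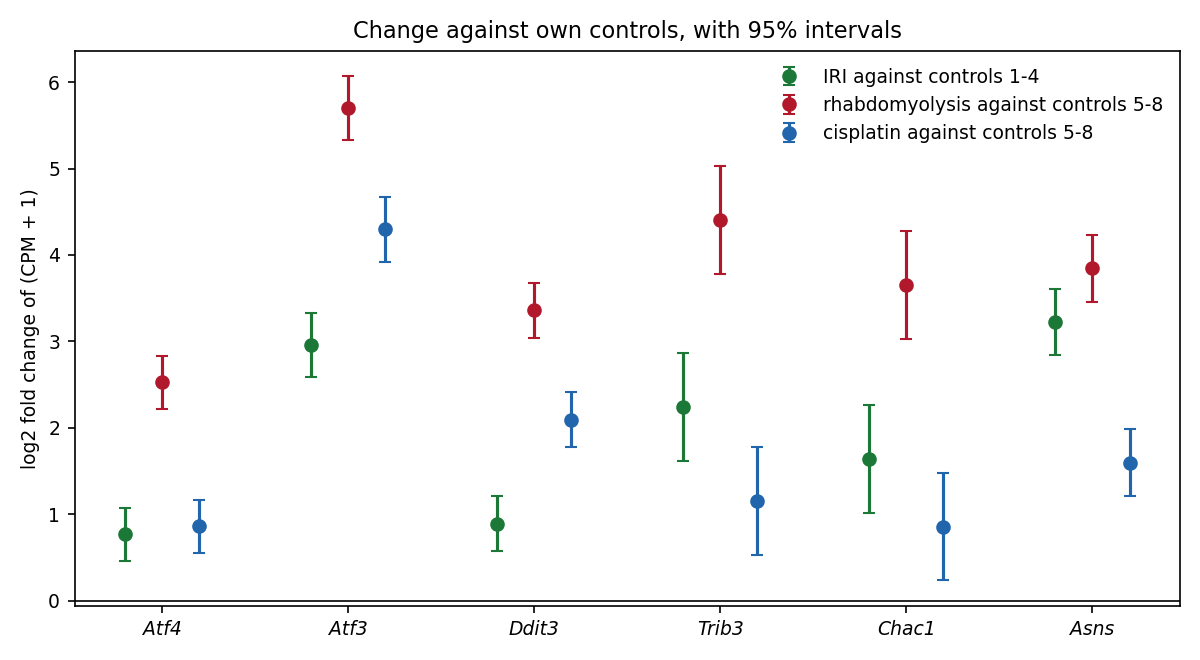
Difference of each gene from its own controls on the log2(CPM + 1) scale in IRI, rhabdomyolysis and cisplatin, with 95% intervals from limma as bars. Rhabdomyolysis gives the largest difference for each gene, on this scale Asns leads in IRI at 3.22 and Atf3 leads in cisplatin at 4.29.

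Rhabdomyolysis and cisplatin share a range of library numbers and were compared directly, with their different sampling times in mind. All 6 genes were called higher after rhabdomyolysis, where 54.1% of tested genes were called, 21.4% higher and 32.7% lower, and the groups overlapped for none of the 6, beside 18.8% of tested genes with every rhabdomyolysis mouse above every cisplatin mouse. The log2 difference was 3.25 for Trib3 (SE 0.302, limma adjusted p 9.89e-09), 2.79 for Chac1 (SE 0.300, adjusted p 8.21e-08) and 2.25 for Asns (SE 0.185, adjusted p 1.50e-09). It was 1.67 for Atf4 (SE 0.147, adjusted p 4.67e-09), and it was smallest for the factors Atf3, at 1.40 (SE 0.179, adjusted p 9.83e-07), and Ddit3, at 1.26 (SE 0.153, adjusted p 4.94e-07).

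The 24-h injuries IRI and rhabdomyolysis were compared through their differences from their own controls. Of the 6 genes 5 had a smaller effect in IRI, where 52% of tested genes were called, 28.6% with a higher and 23.4% with a lower effect in IRI. The effect in IRI was lower by 2.74 for Atf3, with an interaction estimate of -2.74 (SE 0.254, limma adjusted p 3.19e-08), and by similar amounts for Ddit3 at -2.47 (SE 0.217, adjusted p 1.67e-08), Trib3 at -2.17 (SE 0.427, adjusted p 0.000273) and Chac1 at -2.01 (SE 0.425, adjusted p 0.000535). Atf4 stood at -1.76 (SE 0.209, adjusted p 8.55e-07). Asns differed least, at -0.62 (95% interval -1.17 to -0.08), and missed the threshold with an adjusted p of 0.0513. With edgeR on the recovered reads the Chac1 call was lost, at an adjusted p of 0.0642. Without IRI mouse 1 the Asns estimate was -0.83 with an adjusted p of 0.00475, and it also passed without control 4, control 7 or rhabdomyolysis mouse 1, at adjusted p of 0.0369, 0.0363 and 0.0235.

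IRI and cisplatin divided the 6 genes, of which 3 were called, beside 30.3% of tested genes. Atf3 and Ddit3 had the smaller effect in IRI, with estimates of -1.34 (SE 0.254, limma adjusted p 0.000412) and -1.21 (SE 0.217, adjusted p 0.000227), where 16.8% of tested genes were called lower. Asns had the larger effect in IRI, at 1.63 (SE 0.262, adjusted p 7.23e-05), where 13.5% of tested genes were called higher. Trib3 was 1.08 higher in IRI (95% interval 0.20 to 1.97) and Chac1 0.78 higher (95% interval -0.10 to 1.66), with adjusted p of 0.0588 and 0.167. Atf4 was not called different, at -0.09 (95% interval -0.52 to 0.34, adjusted p 0.775). The Trib3 difference passed without IRI mouse 2 or IRI mouse 4, at adjusted p of 0.0410 and 0.0203, and the Chac1 difference without IRI mouse 3, at 0.0476. Without IRI mouse 1 the estimates fell to 0.59 for Trib3 and 0.33 for Chac1, and neither was called. The 2 comparisons of IRI effects share the IRI mice and controls 1 to 4, and the rhabdomyolysis and cisplatin effects share controls 5 to 8.

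Ratios of genes within the same mouse do not depend on how a library was scaled, and they show the same division mouse by mouse. The ratio of Ddit3 to Asns reads had a median of 1.58 in controls (range 1.14 to 2.41), 0.295 in IRI (0.255 to 0.419), 1.04 in rhabdomyolysis (0.838 to 1.06) and 2.04 in cisplatin (1.90 to 2.14). Every IRI mouse lay below every control, rhabdomyolysis lay between, and every cisplatin mouse lay above every IRI and rhabdomyolysis mouse. The ratio of Atf3 to Asns was 0.222 in controls (0.0625 to 0.300), 0.289 in IRI (0.177 to 0.437), 1.21 in rhabdomyolysis (1.07 to 1.86) and 2.45 in cisplatin (2.04 to 2.87). For this pair IRI overlapped the controls, whereas rhabdomyolysis and cisplatin each stood above both.

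The ratio of Asns to Atf4, an enzyme to its regulator's mRNA, was 0.0659 in controls (range 0.0459 to 0.0871), 0.457 in IRI (0.386 to 0.481), 0.199 in rhabdomyolysis (0.170 to 0.223) and 0.128 in cisplatin (0.106 to 0.143). The 4 groups did not overlap, and IRI was highest. The ratio of Ddit3 to Trib3 separated cisplatin, at 10.2 (7.47 to 10.7), from IRI at 1.78 (0.680 to 2.25) and rhabdomyolysis at 2.00 (1.48 to 2.16), with controls at 6.33 (4.58 to 9.25). The ratio of Trib3 to Chac1 was 2.33 in controls (1 to 5), 2.75 in IRI (1.66 to 5), 2.17 in rhabdomyolysis (1.86 to 2.48) and 1.81 in cisplatin (1.31 to 2.71), and all 4 ranges overlapped. These ratios were compared by their ranges, with no test.

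**Figure D3:**
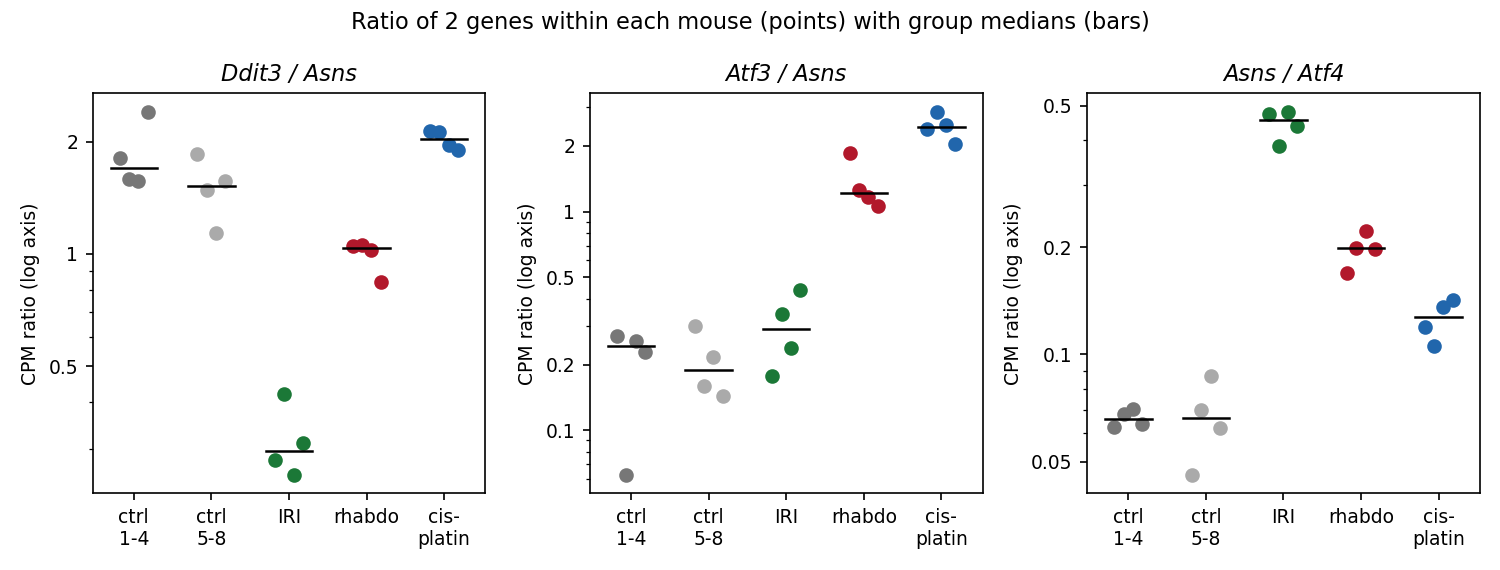
Ratio of reads of Ddit3 to Asns, of Atf3 to Asns and of Asns to Atf4 in each mouse, on log axes, by group. Each point is 1 mouse and each bar a group median. IRI mice are lowest for Ddit3 to Asns and highest for Asns to Atf4, and cisplatin mice are highest for Atf3 to Asns.

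Single mice carried part of the spread. IRI mouse 1 had the highest level of its group for 5 of the 6 genes, all but Atf3, whereas it was the highest of its group for 24.3% of all tested genes. Against the mean of the other 3 IRI mice it was 4.48 times as high for Chac1, 4.36 times for Trib3, 1.81 times for Asns, 1.65 times for Atf4, 1.56 times for Ddit3 and 0.947 times for Atf3. Without this mouse the fold over controls 1 to 4 was 5.09 for Chac1, 5.21 for Trib3, 9.81 for Asns, 1.77 for Ddit3 and 16.8 for Atf3. The 6 calls in IRI held without it, with log2 differences of 1.18 for Chac1, 1.74 for Trib3, 3.01 for Asns and 0.59 for Atf4 and limma adjusted p of 3.00e-05, 2.51e-08, 5.16e-12 and 0.000328.

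Other lists differed in how often this mouse was the highest of its group: 7 of 8 cytosolic aminoacyl-tRNA synthetases in the table, 10 of 17 further ATF4 targets, 6 of 13 enzymes of serine, glycine, folate and proline metabolism and 1 of 12 ATF6 and XBP1 targets. The median ratio of mouse 1 to the mean of the other 3 was 1.23, 1.196, 0.976 and 0.941 in these lists, beside 0.987 over all tested genes. Cars, the cysteinyl-tRNA synthetase, was 30.3 CPM in it and 21.0 to 21.5 in the others. Mthfd2, a mitochondrial folate enzyme, was 29.8 CPM against 14.2 to 16.3, and Aldh18a1, which starts proline synthesis, was 26.4 CPM against 11.1 to 15.5. Proximal tubule markers summed to 14257 CPM in mouse 1 and to 11229, 14652 and 17498 in mice 2 to 4, and myeloid markers to 139.9 CPM against 127.2, 113.3 and 117.0, so the proximal sum lay inside the range of the others and the myeloid sum above it. The part of these markers in the level of the 6 genes was not tested. Rhabdomyolysis mouse 1 and cisplatin mouse 1 were each the lowest of their group for 5 of the 6 genes, and for 26.2% and 24.0% of all tested genes.

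**Figure D4:**
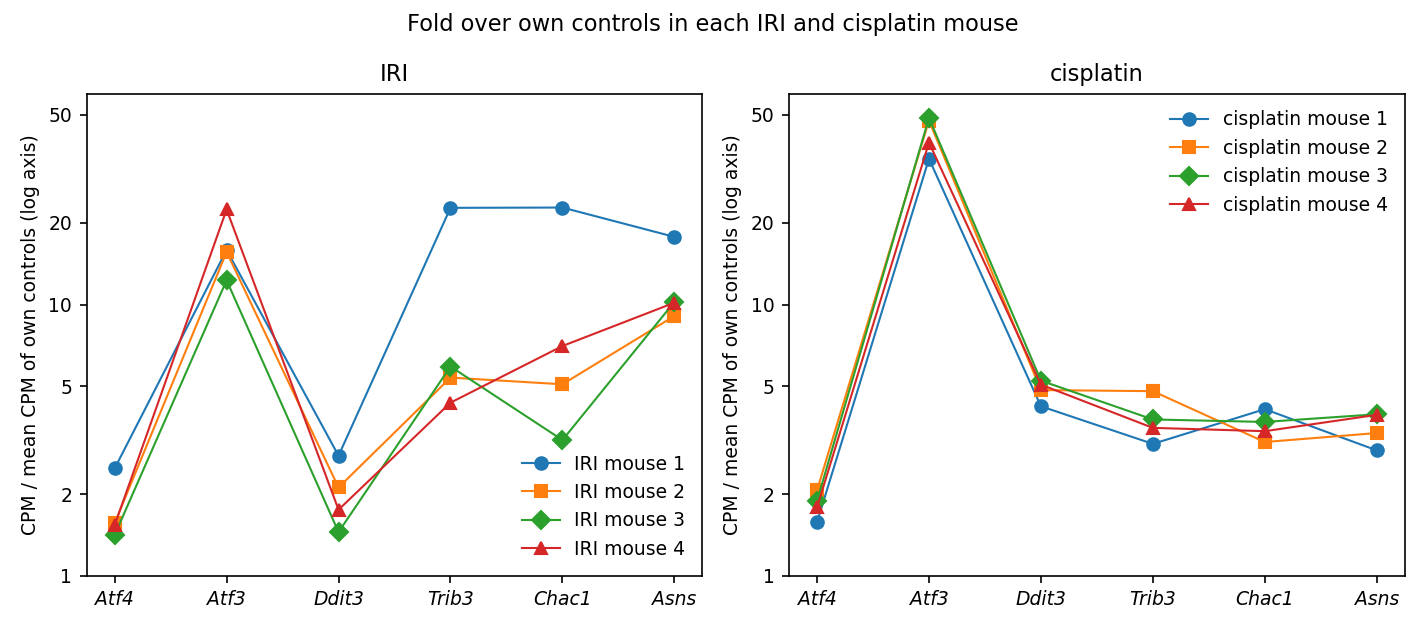
Fold over the mean of the own controls for each of the 6 genes in single IRI and cisplatin mice, on a log axis. Each line is 1 mouse. IRI mouse 1 lies above the other IRI mice for all genes but Atf3, with the widest gaps for Chac1 and Trib3.

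The arm upstream of ATF4 was sparsely covered. Of 11 listed eIF2α kinases and phosphatase genes 2 were in the table. Ppp1r15a, which encodes GADD34, the phosphatase subunit that reverses eIF2α phosphorylation, was 18.1 ± 2.04 and 17.7 ± 1.91 CPM in the 2 sets of controls, 20.6 ± 3.03 after IRI, 343 ± 80.1 after rhabdomyolysis and 91.8 ± 9.62 after cisplatin (SD, n = 4 each). Its log2 difference was 0.17 in IRI, where it was not called (limma adjusted p 0.269), against 4.18 in rhabdomyolysis and 2.31 in cisplatin, both called. The IRI effect was lower than that of rhabdomyolysis by an estimate of -4.01 (adjusted p 2.38e-12) and lower than that of cisplatin by -2.14 (adjusted p 5.86e-08). Eif2ak2, the kinase PKR, rose in each injury, by 0.86, 0.82 and 0.96 on the log2 scale in IRI, rhabdomyolysis and cisplatin. Of 9 subunits of eIF2 and eIF2B 3 were in the table, and 2, 3 and 3 of them rose, beside 40.6%, 48.8% and 47.8% of all tested genes called higher, with Eif2s2 rising most, by 1.65 in rhabdomyolysis. Eif2b3 was not called in IRI, at 0.30 (limma adjusted p 0.0613). It passed there with all 8 controls (adjusted p 0.0103), with 75th percentile scaling (0.00721) and without control 2 or 3 (0.0250 and 0.0351).

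Transcription factors that pair with ATF4 or act after it rose for the most part. Of 9 listed 5 were in the table, and 4 rose in IRI and 5 in rhabdomyolysis and in cisplatin, beside 40.6%, 48.8% and 47.8% of all tested genes called higher, with median log2 differences of 1.78, 1.96 and 1.49. Atf5, a close relative of Atf4, was 14.8 ± 2.69 and 17.0 ± 2.08 CPM in the controls, 120 ± 53.8 after IRI, 118 ± 24.1 after rhabdomyolysis and 25.9 ± 2.91 after cisplatin. Atf5 was at 199 CPM in IRI mouse 1 and at 79.5 to 103 in the other IRI mice. Its log2 differences were 2.86, 2.70 and 0.58, all called, the last lost with quantile normalization (adjusted p 0.104), and its IRI effect exceeded that of cisplatin by 2.28 (adjusted p 4.36e-06). Cebpb, the C/EBP factor that dimerizes with ATF4, rose by nearly the same amount against own controls in all 3 injuries, 1.98, 1.96 and 1.92. Its mean level was 11.4 CPM in controls 1 to 4 and 18.3 in controls 5 to 8. After IRI, rhabdomyolysis and cisplatin it was 46.8, 72.0 and 71.9 CPM, so the likeness depends on which controls are used. Nupr1, a small stress-induced chromatin protein, rose by 1.78, 2.69 and 1.49. In the direct comparison 2 of the 5 factors were higher in rhabdomyolysis than in cisplatin, 1 was lower and 2 were not called. Over all tested genes 21.4% were called higher and 32.7% lower there.

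Of 25 further ATF4 targets 17 were in the table, and 14, 16 and 15 rose and 1 fell in IRI, rhabdomyolysis and cisplatin, where 40.6%, 48.8% and 47.8% of all tested genes were called higher, with median log2 differences of 1.43, 1.77 and 1.06. Slc7a11, the cystine importer, was at 0 to 0.404 CPM in controls, from 3 reads or fewer a library, and reached 12.8 ± 7.58 CPM after IRI, 147 ± 61.2 after rhabdomyolysis and 3.04 ± 0.990 after cisplatin (SD, n = 4 each), so no fold is given. Slc7a1 and Slc7a5, which import cationic and large neutral amino acids, rose by 1.60 and 1.53 on the log2 scale in IRI, 3.62 and 3.63 in rhabdomyolysis and 1.82 and 2.00 in cisplatin. Gdf15, a circulating stress hormone, rose by 3.35, 4.26 and 4.50, and between rhabdomyolysis and cisplatin it was not called different (-0.24, adjusted p 0.290), unlike the 6 genes above. Ddit4, an inhibitor of mTORC1, had differences of 1.43, 2.08 and 3.00. Klhl24 was the target that fell, by 0.82, 1.53 and 1.18. In the direct comparison 10 of the 17 were higher in rhabdomyolysis than in cisplatin, 3 were lower and 4 were not called. Over all tested genes 21.4% were called higher and 32.7% lower there.

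Enzymes of serine, glycine, folate and proline metabolism went both ways. Of 18 listed 13 were in the table, and 6 rose and 7 fell in each injury, a split near that of all tested genes (40.6%, 48.8% and 47.8% higher and 40.1%, 46.5% and 44% lower), with median log2 differences of -0.48, -0.75 and -0.47. Of the 6 that rose in cisplatin, the calls of Phgdh and Aldh1l2 were lost with quantile normalization (adjusted p 0.225 and 0.260), that of Phgdh also with all 8 controls (adjusted p 0.139) and without control 5 or 8 or cisplatin mouse 2 or 3, and that of Aldh1l2 without control 6 or 7 or cisplatin mouse 3. Mthfd2 rose by 2.50, 3.15 and 0.97 and Aldh18a1 by 1.80, 2.91 and 0.90. Psat1, an enzyme of serine synthesis, rose most in IRI: it was 56.1 and 55.6 CPM on average in the controls, 311 ± 35.9 after IRI, 97.8 ± 21.5 after rhabdomyolysis and 127 ± 13.4 after cisplatin. Its effect in IRI exceeded that in rhabdomyolysis by 1.67 (limma adjusted p 2.71e-06) and that in cisplatin by 1.28 (adjusted p 0.000132). Cbs, which begins the conversion of homocysteine to cysteine and is abundant in healthy tubules, fell by 2.87, 2.70 and 1.65. In the direct comparison 5 of the 13 enzymes were higher in rhabdomyolysis than in cisplatin, 7 were lower and 1 was not called. Over all tested genes 21.4% were called higher and 32.7% lower there.

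Of 20 cytosolic aminoacyl-tRNA synthetases 8 were in the table, and 5, 8 and 7 rose and 0 fell in IRI, rhabdomyolysis and cisplatin, beside 40.6%, 48.8% and 47.8% of all tested genes called higher, with medians of 0.44, 1.26 and 0.41. Aars, the alanyl-tRNA synthetase, gained 1.57 in rhabdomyolysis and 0.42 in cisplatin, and its 0.25 in IRI was not called (adjusted p 0.0599) but passed without control 2 or without control 7 (adjusted p 0.0411 for the latter). The 3 synthetases not called in IRI, Aars, Nars and Rars, all passed with all 8 controls (adjusted p 0.0102, 0.0177 and 0.00371), with 75th percentile scaling and with quantile normalization, and Rars also without control 2, control 7 or IRI mouse 2. Cars gained 0.45 in IRI, a call lost without IRI mouse 1 (adjusted p 0.0629) or without control 4 (adjusted p 0.0617) and with quantile normalization (adjusted p 0.0539). In the direct comparison 6 of the 8 were higher in rhabdomyolysis than in cisplatin, beside 21.4% of all tested genes.

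Chaperones and folding enzymes driven by ATF6 and XBP1, the other arms of the response to unfolded protein, rose together in rhabdomyolysis, where 11 of the 12 in the table, of 24 listed, were called higher, beside 48.8% of all tested genes. In IRI 9 rose and 1 fell, and in cisplatin 7 rose and 1 fell, beside 40.6% and 47.8% of all tested genes called higher. The direct tests called 12 of 12 higher in rhabdomyolysis than in cisplatin and 11 of 12 with a smaller effect in IRI than in rhabdomyolysis, beside 21.4% and 23.4% of all tested genes. Of the 7 in cisplatin, the calls of Sdf2l1 and Creld2 were lost with quantile normalization (adjusted p 0.300 and 0.108), and that of Sdf2l1 also with edgeR on recovered reads (adjusted p 0.0538) and without control 8 or cisplatin mouse 1, 2 or 4. Hspa5, the chaperone BiP, was 305 and 358 CPM on average in the 2 sets of controls, 486 ± 33.2 after IRI, 4492 ± 485 after rhabdomyolysis and 596 ± 27.2 after cisplatin (SD, n = 4 each), and rose by 0.68, 3.66 and 0.75. Dnajb9, a cochaperone of BiP, rose by 2.37 in rhabdomyolysis and 0.75 in cisplatin and was not called in IRI (0.10, adjusted p 0.480). Hyou1 rose by 0.89, 2.32 and 0.64. Herpud1, a part of the degradation machinery, fell by 1.62 in IRI and 1.26 in cisplatin, and its -0.28 in rhabdomyolysis was not called, became 0.27 with quantile normalization and was called at -0.39 with all 8 controls (adjusted p 0.0184). Genes of the mitochondrial stress list were not analysed here.

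**Figure D5:**
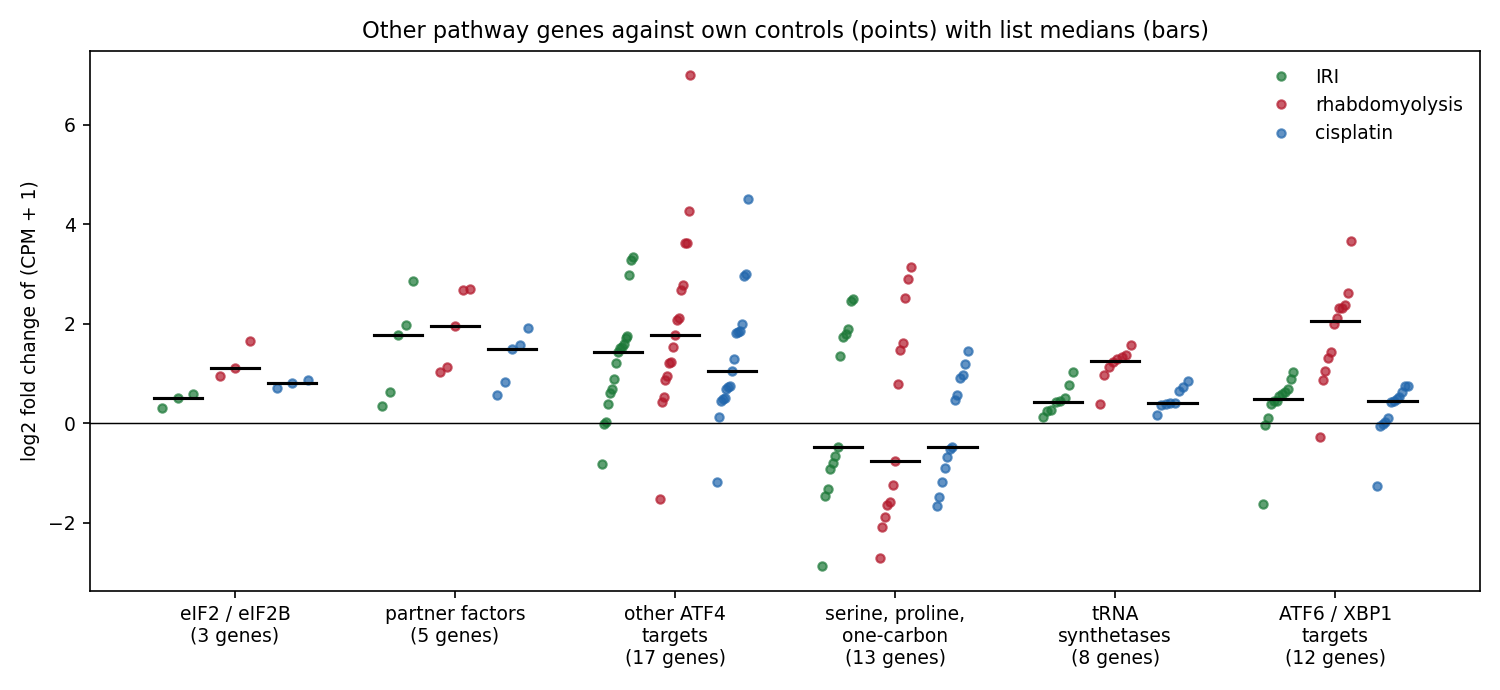
Log2 difference from own controls of each gene of 6 pathway lists in IRI, rhabdomyolysis and cisplatin. Each point is 1 gene and each bar the median of its list, and ATF6 and XBP1 targets have medians of 0.50, 2.05 and 0.44.

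Markers of cell types moved with the injuries. Of 14 proximal tubule markers 13 were in the table, and 12, 13 and 13 fell in IRI, rhabdomyolysis and cisplatin, beside 40.1%, 46.5% and 44% of all tested genes called lower. The call for Hnf4a in IRI was lost with 75th percentile scaling and without control 3 (limma adjusted p 0.0555 in each). Its sign changed with quantile normalization. The summed level of the 13 markers was 11229 to 17498 CPM in IRI, 9077 to 10730 in rhabdomyolysis and 6091 to 10271 in cisplatin. The 9 myeloid markers in the table, of 12 listed, summed to 72.2 to 96.5 CPM in controls, 113 to 140 in IRI, 121 to 247 in rhabdomyolysis and 193 to 276 in cisplatin. This sum joins genes that went opposite ways: Csf1r, the receptor that maintains resident macrophages, was 51.7 ± 7.01 CPM in controls (SD, n = 8) and fell by 1.54, 0.95 and 0.85 on the log2 scale, while Itgam, Cd14, Cd68, S100a8 and S100a9 rose in each injury, Cd68 by 1.70, 3.04 and 4.47. The 5 endothelial and podocyte markers in the table, of 10 listed, summed to 317 to 705, 750 to 892, 1148 to 1614 and 786 to 993 CPM in the same order. No marker was at 0 in any group. The part of cell makeup in the levels of the 6 genes was not tested, and in bulk tissue fewer cells of a type and less RNA per cell cannot be told apart.

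The genes whose pattern over the 12 injured mice was most like that of each of the 6 were found by the smallest root mean square difference in log2(CPM + 1) from own controls. For Atf4 they were Hgsnat, a lysosomal acetyltransferase, at 0.200, Chka, choline kinase, at 0.249, and Hsp90aa1, a cytosolic chaperone, at 0.266. For Atf3 they were Plaur, the urokinase receptor, at 0.546, Tnfrsf12a, the receptor for TWEAK, at 0.577, and Nrcam, an adhesion molecule, at 0.633. Plaur had means of 39.3 CPM in IRI, 189 in rhabdomyolysis and 92.2 in cisplatin, the order of Atf3. For Ddit3 they were Dusp10, a phosphatase of stress kinases, at 0.317, Slc39a6, a zinc importer, at 0.388, and Il24, a cytokine with 0 reads in all 8 controls, at 0.405. For Asns they were Vtcn1 at 0.577, Lrp8 at 0.664 and Eif4ebp1, a translation repressor induced by ATF4, at 0.667, and Vtcn1 measured 19.2 ± 1.80 CPM in IRI, 18.2 ± 2.65 in rhabdomyolysis and 5.66 ± 0.477 in cisplatin.

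Chac1 and Trib3 were among each other's nearest genes, at a difference of 0.655, the closest pair among the 6. Chac1 was nearest to Aldh18a1 at 0.597 and Map1b, a microtubule protein, at 0.638, and Trib3 after Chac1 to Slc7a1 at 0.775 and Asns at 0.777. The farthest pair was Atf3 and Atf4, at 2.99. These distances are descriptions over mice that share their controls. Adding 1 to CPM shrinks changes from levels near the floor, so nearness on this scale need not be nearness in fold. By the fold of mean CPM in rhabdomyolysis, Chac1 rose 38.6-fold, against 10.2-fold for Aldh18a1 and 9.63-fold for Map1b. Ddit3 rose 11.9-fold there, against 20.3-fold for Dusp10 and 10.3-fold for Slc39a6, and no fold can be given for Il24.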

How the data were processed

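Kidney cortex RNA of 20 mice was made into stranded poly-A libraries and read as 150-bp pairs, per the labels' protocols. The authors deposited CPM values, and the submitters' processing notes name FastQC, Bowtie2 2.1.0, RSEM 1.2.15, edgeR and GRCm38, without saying how the 6025 genes were chosen. In each library 100% of values were whole multiples of 1 read (within 0.001), so reads could be recovered. In cisplatin mouse 2 the value of 1 read, 0.101 CPM, lies so near a round decimal that its read counts are less certain than those of the other libraries.

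CPM were taken as log2(CPM + 1). The 5672 genes that averaged 1 CPM or more over the libraries were fitted in limma 3.58.1 (R 4.3.3) with 5 groups over all 20 libraries and a mean-variance trend, and p-values were adjusted by Benjamini-Hochberg, called at 0.05, two-sided. Alternatives were a pseudocount of 0.1, other filters and scalings, edgeR 4.0.16 on recovered reads, all 8 controls, separate fits, a replicate block and leaving out each mouse. Exon lengths and positions came from GENCODE M21 and promoters from RefSeq. Of the listed genes, the text names up to 5 a list with the largest change past the threshold, and 3 most alike genes for each of the 6. The 6 genes and the lists were chosen with earlier results of these data known. The tests were tried on simulated data first. Mice are biological replicates, per the series design.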

Additional observations from a re-analysis of the deposited data

Results flagged for a closer look

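In each group of 4 or 8 mice, the gap from the highest or lowest mouse to its nearest neighbour was divided by the range of the group, for the 6 genes and the other named genes. Of 275 groups 19 exceeded the 95% critical value, where chance gives about 1 in 20, or 13.75. IRI mouse 1 was the distant high mouse for Atf4 at 0.861, Trib3 at 0.915, Asns at 0.868, Cars at 0.950 and Mthfd2 at 0.864. Other distant IRI mice were mouse 2 for Hnf4a at 0.895 and Nupr1 at 0.865, mouse 3 for Vtcn1 at 0.850 and mouse 4 for Psat1 at 0.892. In rhabdomyolysis they were mouse 1 for Dnajb9 at 0.851, S100a8 at 0.869 and S100a9 at 0.907, mouse 2 for Cebpb at 0.930, and mouse 4 for Dusp10 at 0.832, Ppp1r15a at 0.868 and Psat1 at 0.921. Among controls they were control 7 for Hsp90aa1 at 0.662 and Mthfd2 at 0.717, and control 2 for Nfe2l2 at 0.663.

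Effects that differed between injuries by limma's test of the difference, in log2 units, were 14 of 18 for the 6 genes, beside 54.1%, 52% and 30.3% of all tested genes called in the 3 comparisons below. Between rhabdomyolysis and cisplatin they were Atf3 at 1.40, Atf4 at 1.67, Ddit3 at 1.26, Chac1 at 2.79, Trib3 at 3.25 and Asns at 2.25. Between the IRI and the rhabdomyolysis effect they were Atf3 at -2.74, Atf4 at -1.76, Ddit3 at -2.47, Chac1 at -2.01 and Trib3 at -2.17. Between the IRI and the cisplatin effect they were Atf3 at -1.34, Ddit3 at -1.21 and Asns at 1.63.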

How the results depend on the processing

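Of 1050 recomputed fold changes of the 6 genes 1034 kept their direction and their side of the threshold, 14 newly passed it, 2 no longer passed it and 0 changed sign. The 2 were Chac1 in cisplatin with quantile normalization and the Chac1 difference between IRI and rhabdomyolysis with edgeR, both given above. Newly passing were 8 for Asns between IRI and rhabdomyolysis, including a 5 CPM minimum (adjusted p 0.0458) and 75th percentile scaling (0.0295), and Trib3 and Chac1 between IRI and cisplatin with all 8 controls (0.000610 and 0.0337). Counted over the 6 genes, those with a higher effect in IRI than in cisplatin were 2 with quantile normalization and 3 with all 8 controls, and 1 to 2 when single mice were left out. Genes called in that comparison rose from 1716 to 2655 with all 8 controls. Between the 2 sets of controls 2 genes were called with a pseudocount of 0.1, and 0 to 5 when single mice were left out. Among other named genes the sign changed for Hnf4a in IRI (0.33) and Herpud1 in rhabdomyolysis (0.27), both with quantile normalization, while 30 calls were lost and 31 gained of all those recomputed. Lost were, among others, Phgdh, Aldh1l2, Atf5, Sdf2l1 and Creld2 in cisplatin with quantile normalization, and gained were Aars (adjusted p 0.0102) and Dnajb9 (0.0290) in IRI with all 8 controls. A 5 CPM minimum removed Chac1, so no value was had there.

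Replicate numbers are shared between controls 1 to 4 and IRI and between rhabdomyolysis and cisplatin. Correlations of same-numbered mice had both signs, at -0.112 to 0.176 and -0.207 to 0.325. Rhabdomyolysis mouse 4 and cisplatin mouse 4 had the highest correlation of any pair from these 2 groups, at 0.325. Not every mouse correlated best with its own number. With the number as a replicate block 4411 genes were called in IRI, against 4578 without it, and 2834 between rhabdomyolysis and cisplatin, against 3068, with 6 of the 6 genes called in both. Low reads limit Chac1, Atf3 and Trib3 in controls, with 2 to 12 reads a library.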
